A study of Mus musculus with 4 samples.

Results

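The DNA damage checkpoint and repair genes described here are 49 mouse genes fixed by symbol, covering break sensing, checkpoint signalling, p53 and the main repair pathways. Named probes were found for 47 of them (73 probes), and 42 were above background in at least 1 group and tested among 21050 genes. RNA was measured on 4 one-colour oligonucleotide arrays, 2 of lineage-negative CD44+ cells and 2 of lineage-negative CD44- cells. Both groups were sorted from digested tumours of the glandular stomach of K19-Wnt1/C2mE mice aged 30 weeks. These transgenic mice express Wnt1, cyclooxygenase-2 (C2) and microsomal prostaglandin E synthase (mE) in the gastric epithelium under the promoter of the keratin 19 gene, so both groups carry all transgenes and there is no group without a tumour. The sort marker CD44 is a surface receptor for hyaluronan. How many mice gave each sample, and which lineage markers were used, are not given in the sources used here. Nothing says that the 2 samples of a group came from separate mice, and the p-values may therefore cover technical spread alone.

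As background, cells answer a broken or stalled chromosome with sensor kinases, Atm at double-strand breaks and Atr at stalled forks, which switch on the effector kinases Chek2 and Chek1 and stabilise p53. Breaks are then joined directly, or copied from the sister chromatid by homologous recombination, while damaged or mispaired bases are cut out by excision and mismatch repair. Recombination, Fanconi anaemia and fork-checkpoint proteins act during DNA replication, and many of their genes are transcribed mainly in cycling cells. Excision repair and end joining run throughout the cell cycle.

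No repair gene passed the test. The nuclease Exo1, the Fanconi clamp subunit Fanci and the checkpoint kinase Chek1 had signals 3.93, 3.09 and 3.03 times as high in CD44+ as in CD44- cells. They are on a list of 15 genes taken to be genes of cycling cells, drawn up with earlier results of these data known. In these bulk samples, fewer cells of a type and less RNA per cell cannot be told apart. By limma, 0 of 42 passed at a Benjamini-Hochberg adjusted p under 0.05, against 0.399% of all genes tested (0.0238% as higher in CD44+ cells and 0.375% as lower). These were 84 genes, 5 of them higher, and centring each array on its median made them 121 higher and 628 lower in CD44+ cells. Without adjustment (p under 0.05), 12 of the 42 were higher in CD44+ cells (28.6%), against 2.86% of all genes, and 0 were lower, against 7.9%. Both CD44+ arrays lay above both CD44- arrays for 22 of the 42 (52.4%), where 22.4% of all genes did so, and the reverse order was seen for 0 of the 42, where 17.2% of all genes showed it. For 13 of the 42 the difference was also at least 2-fold, where 3.8% of all genes met both conditions, and 0 were as far below, where 9.66% did. The counts of 12, 22 and 13 each include Clspn, which was tested only because it was above background in CD44+ cells. The median log2 difference (CD44+ minus CD44-) of the 42 was 0.44, and that of all genes was 0.16. Centring on the median moved all genes up, to 0.26, and the repair genes with them, to 0.55. Of the 42, 35 lay above 0 (60.6% of all genes did) and 30 above the median of all genes, and the number above 0 was between 32 and 37 with 1 array left out.

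The 49 genes were divided by a list of 15 taken to be genes of S phase or of cycling cells. Of these 15, 13 were tested, all 13 lay above 0 (60.6% of all genes) without overlap of the groups (22.4% of all genes), and their median log2 difference was 1.46. Among them Clspn was tested only because it was above background in CD44+ cells. The other 29 genes tested had a median of 0.24, with 22 above 0. The median level of the 13 was 0.61 and 0.08 in the CD44+ samples and -0.78 and -0.82 in the CD44- samples. These and all levels below are log2 signals from which the log2 of the 75th percentile on the same array was taken. That of the other 29 was -0.05 and -0.06 against -0.12 and -0.22. With 1 array left out, the median difference of the 13 was between 1.26 and 1.57 and that of the 29 between 0.24 and 0.44. The list leaves out recombination and Fanconi genes with small differences (Rad52 at -0.52, Fancl at -0.05, Fancc at 0.23) and with larger ones (Fancg at 1.26, Xrcc2 at 1.13). It was drawn up with earlier results of these data known, so its count and medians are a description.

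**Figure D1:**
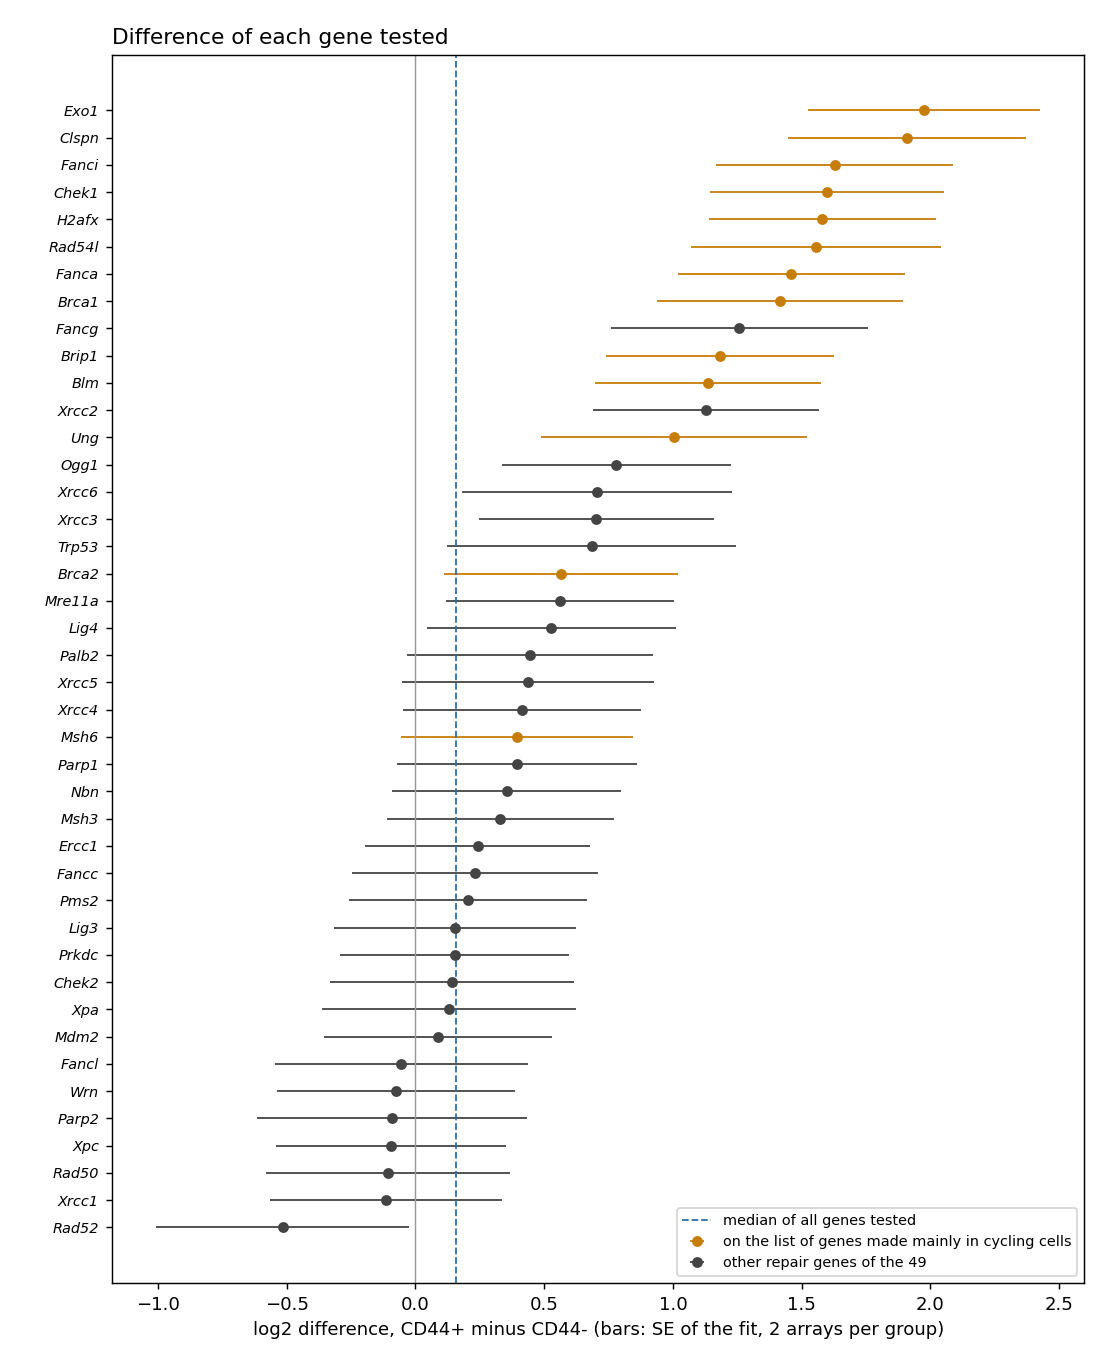
The log2 difference (CD44+ minus CD44-) of each of the 42 repair genes tested is plotted with its standard error, from 2 arrays per group. Genes on the list of cycling cells are in orange, and the median of all genes (0.16) is a dashed line. Exo1 is at the top at 1.98 and Rad52 at the bottom at -0.52, Clspn was not well above background in CD44- cells, and 11 of the upper 13 genes are on the list of cycling cells.

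The arrays differed in brightness. The 75th percentile of processed signal was 244 on the first CD44+ array and between 406 and 527 on the others, and 53.1% of gene probes were well above background there, against 65.6% to 69.6%. Probes that were well above background on no array had a median level of -5.68 on the first CD44+ array and between -7.42 and -7.16 on the others, so background itself stands higher on that array on this scale. Of the 42 genes tested, 40 were well above background on all 4 arrays. The exceptions were Clspn (2 arrays) and Rad50 (3 arrays). No gene probe was saturated.

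Among the checkpoint genes, the fork-checkpoint pair Chek1 and Clspn had the higher signal in CD44+ cells, and the groups overlapped for Chek2. Chek1, the effector kinase of the Atr branch, was at -0.69 and -0.60 on the CD44+ arrays and at -2.50 and -1.99 on the CD44- arrays. Both CD44+ values lay above both CD44- values, and the log2 difference was 1.60 ± 0.45 (SE, n = 2 arrays per group, limma adjusted p = 0.203), a 3.03-fold higher signal. A second Chek1 probe differed by 1.46. The Chek1 difference was 1.175 with normexp background correction. Clspn encodes claspin, the adaptor through which Atr reaches Chek1. It was at -3.36 and -3.29 in CD44+ cells, and at -4.93 and -5.55 in CD44- cells, both not well above background. Clspn was at least 3.36-fold higher in CD44+ cells (limma adjusted p = 0.154), a lower limit in which each CD44- array counts at its detection floor, the smallest signal called well above background, unless the Clspn signal exceeded it. On the first CD44+ array Clspn itself lay close to the floor of that array (-3.41), so the limit is uncertain on that side too. The limit holds for the signal as scanned, and with normexp background correction the log2 difference was 0.77. Chek2, the effector kinase of the Atm branch, was at -2.93 and -2.21 against -2.81 and -2.61, with overlapping groups and a difference of 0.14 ± 0.47. Leaving out the second CD44+ array turned the sign of the Chek2 difference, to -0.22. For Atm the only named probe was not well above background on any array (-6.02 to -5.38), and no probe was named for Atr, so the sensor kinases themselves have no value here.

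H2afx encodes the histone variant that Atm and Atr phosphorylate beside breaks. Its levels were 4.45 and 4.75 in CD44+ cells and 3.01 and 3.03 in CD44- cells, apart by far more than the gap between replicates. The difference was 1.58 ± 0.44 (2.99-fold, limma adjusted p = 0.199). The level of this RNA says nothing of the phosphorylated protein, which was not measured.

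The tumour suppressor Trp53 was at 1.66 and 0.29 in CD44+ cells and at 0.49 and 0.09 in CD44- cells. The first CD44+ array stood apart and the second lay between the CD44- values. The difference of 0.68 ± 0.56 was 0.001 without the first CD44+ array and 1.37 without the second. A second Trp53 probe differed by 0.44. Mdm2, the ubiquitin ligase that p53 induces and that degrades p53, was at -0.13 and -0.21 against -0.42 and -0.09, a difference of 0.09 ± 0.44, and its second probe differed by -0.07. The genes that p53 switches on can be set beside this. Of 22 listed p53 targets and regulators, 21 were tested and 0 passed. Of the 21, 8 lay above 0 (60.6% of all genes did) and 13 below, and the median difference was -0.06. The largest differences below 0 were those of the antiproliferative gene Btg2 (-1.16 ± 0.49), the cell cycle inhibitor Cdkn1a (-1.05 ± 0.49) and the death receptor Fas (-1.04 ± 0.45), each without overlap of the groups. By limma their unadjusted p-values were 0.0454, 0.0668 and 0.0499, and their adjusted p-values 0.448, 0.530 and 0.464. The p53 relative Trp73, with the smallest p of the list, differed by 1.66 ± 0.50 (limma unadjusted p = 0.0104, adjusted p = 0.233).

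Homologous recombination genes parted into those with a clear gap between the groups and those with little difference. Brca1, the ubiquitin ligase that steers breaks towards recombination, was at 0.61 and 0.08 in CD44+ cells and at -0.78 and -1.36 in CD44- cells. The lowest CD44+ value was above the highest CD44- value, and the difference was 1.41 ± 0.48 (2.67-fold, limma adjusted p = 0.297). Rad54l, a motor protein of strand exchange, was at -0.61 and -1.19 against -2.13 and -2.78, a difference of 1.56 ± 0.49 (2.94-fold, limma adjusted p = 0.251). The Rad54l difference was 1.14 with normexp background correction. Xrcc2, which acts in the same pathway, was at -3.05 and -3.32 against -4.36 and -4.28, well above background on all 4 arrays, and differed by 1.13 ± 0.44 (2.19-fold, limma adjusted p = 0.385). With normexp background correction this difference was 0.57. Brca2, a tumour suppressor that acts on resected single strands, was at -0.38 and -0.03 against -0.96 and -0.58. The Brca2 groups did not overlap, but the difference of 0.56 ± 0.45 was not much above the gap of 0.39 between the CD44- replicates. Xrcc3, a recombination factor, was at -0.99 and -1.51 against -2.05 and -1.86 (difference 0.70 ± 0.46). Palb2, the bridge between Brca1 and Brca2, differed by 0.44 with overlapping groups. Rad52 was at -1.13 and -0.34 against -0.45 and 0.01, the only one of the 42 more than 0.2 below 0, at -0.52 ± 0.49, and its second probe gave -0.56. Bard1, the partner of Brca1, and Rad51c were below the background limit throughout, at -7.53 to -5.67 and -7.45 to -5.46.

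**Figure D2:**
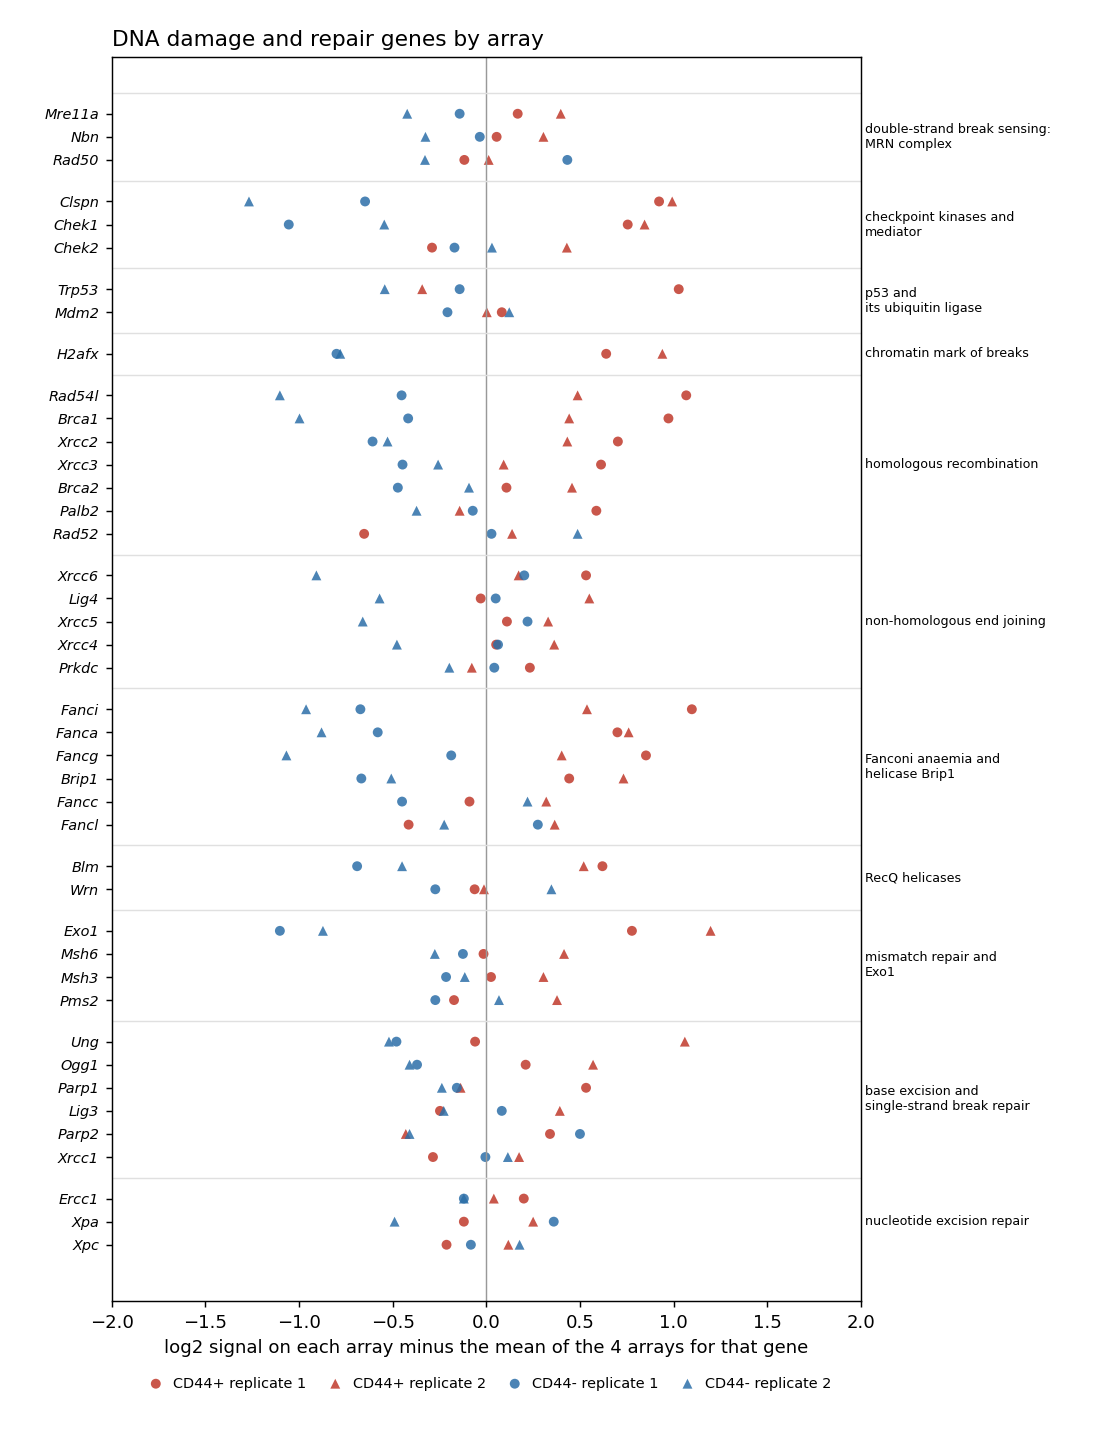
For each of the 42 repair genes tested, the log2 signal on each of the 4 arrays is plotted as its distance from the mean of the 4 arrays for that gene, with CD44+ arrays in red and CD44- arrays in blue and genes ordered by role. Red and blue points stand apart for Clspn, Chek1, H2afx, Brca1, Rad54l, Fanci, Fanca and Exo1, and mix for all 5 end joining genes.

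Of the Fanconi anaemia genes, whose products unhook crosslinked strands, 4 of 6 tested were at least 2-fold higher in CD44+ cells without overlap (3.8% of all genes). Fanci, a subunit of the clamp that the pathway ubiquitinates, was at 1.24 and 0.68 against -0.53 and -0.82, a difference of 1.63 ± 0.46 (3.09-fold, limma adjusted p = 0.203). Its partner Fancd2 was well above background only on the second CD44+ array, at -4.89, and so did not enter the test. Fanca, of the core ligase complex, was at 2.05 and 2.11 against 0.77 and 0.47. Its CD44+ replicates differed by 0.05 and the groups by 1.46 ± 0.44 (2.75-fold, limma adjusted p = 0.236). Fancg, also of the core complex, was at -0.44 and -0.89 against -1.48 and -2.36, a difference of 1.26 ± 0.50 (limma adjusted p = 0.396). It was 1.70 without the first and 0.82 without the second CD44- array. Brip1, the helicase bound by Brca1, was at -0.99 and -0.70 against -2.10 and -1.94 (difference 1.18 ± 0.44, limma adjusted p = 0.357), and its second probe gave 1.08. The core subunit Fancc differed by 0.23 and the ligase Fancl by -0.05, both with overlapping groups.

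Of the RecQ helicases, Blm, which dissolves crossed-over strands, was at 0.12 and 0.02 in CD44+ cells and at -1.19 and -0.95 in CD44- cells. Its difference of 1.14 ± 0.44 (2.2-fold, limma adjusted p = 0.378) exceeded the gaps of 0.10 and 0.23 between replicates. Wrn differed by -0.08 with its brightest probe that passed. Another Wrn probe was at 0.20 on the first CD44+ array and between -7.20 and -6.40 on the other 3, so it was above background on 1 array and did not enter the test.

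Exo1, the exonuclease that resects breaks and removes mismatched strands, had the largest difference among the genes well above background in both groups. This rank did not hold with every array left out. Without the second CD44+ array Exo1 differed by 1.76, against 1.91 for Fanci and 1.85 for Rad54l. Without the first CD44- array Exo1 differed by 1.86, against 1.88 for Rad54l. It was at 1.13 and 1.55 in CD44+ cells and at -0.75 and -0.52 in CD44- cells. The difference was 1.98 ± 0.45, a 3.93-fold higher signal in CD44+ cells (limma adjusted p = 0.136). The mismatch recognition and cutting genes were much closer to 0, at 0.40 for Msh6, 0.33 for Msh3 and 0.20 for Pms2, without overlap for Msh6 and Msh3. For Msh3 the 2 dimmer probes gave -0.85 and -1.13, both at background on the first CD44+ array, so its sign depends on the probe.

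Base excision repair held 1 gene with a 2-fold difference. Ung, the glycosylase that removes uracil from newly copied DNA, was at 1.66 and 2.78 against 1.24 and 1.20. The CD44+ replicates lay 1.12 apart, as far as the difference of 1.00 ± 0.52 (limma adjusted p = 0.598), which was 1.57 without the first and 0.44 without the second CD44+ array. Ogg1, the glycosylase for oxidised guanine, was at -0.05 and 0.31 against -0.63 and -0.67 (difference 0.78 ± 0.44), and its second probe gave 0.62. Parp1 and Parp2, which mark strand breaks with ADP-ribose, differed by 0.39 (without overlap) and -0.09, the scaffold Xrcc1 by -0.11 and the ligase Lig3 by 0.15.

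The end joining and nucleotide excision genes all differed by less than 2-fold. All 5 end joining genes tested lay above 0 (60.6% of all genes did), between 0.15 and 0.71, and each had overlapping groups. Xrcc6, of the Ku dimer that caps broken ends, was at 0.00 and -0.36 against -0.33 and -1.44. Its difference of 0.71 ± 0.52 was 1.26 without the first and 0.15 without the second CD44- array. Lig4, the ligase of this pathway, was at 0.74 and 1.32 against 0.82 and 0.20 (difference 0.53 ± 0.48). The other Ku subunit Xrcc5, the kinase Prkdc and the Lig4 partner Xrcc4 differed by 0.44, 0.15 and 0.41, and a second Xrcc4 probe by -0.16. In the break-sensing complex, the nuclease Mre11a was at 0.59 and 0.82 against 0.28 and 0.00, without overlap (difference 0.56 ± 0.44), Nbn, its adaptor to Atm, differed by 0.35, also without overlap, and the structural subunit Rad50 differed by -0.11. In nucleotide excision repair, which removes bulky lesions, Ercc1, Xpa and Xpc differed by 0.24, 0.13 and -0.09, and only Ercc1 had groups that did not overlap. The helicase gene Ercc2, above background on a single array, did not enter the test. No probe was named for Mgmt, which reverses alkylated guanine.

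Of the 42 genes, 16 had more than 1 probe above background. The probes had the same sign for 12 of them and differed in sign for 4, which were Mdm2, Xrcc4, Fancl and Msh3.

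The pathways were followed into genes outside the 49. Of 24 further recombination and Fanconi genes, 21 were tested and 0 passed. Of these 21, 18 lay above 0 (60.6% of all genes did), with a median of 0.18, close to that of all genes. At least 2-fold higher without overlap were 6 of the 21, where 3.8% of all genes were. Among them, the Rad54l relative Rad54b differed by 1.66 and the Fanconi ubiquitin-conjugating enzyme Ube2t by 1.68. Of 31 further excision and mismatch genes, 30 were tested, 0 passed and 20 lay above 0, with a median of 0.27. Their 4 smallest p-values were those of the glycosylase Neil3 (2.11 ± 0.44, 4.31-fold, limma adjusted p = 0.113), the flap nuclease Fen1 (1.77 ± 0.45), the single-strand binding subunit Rpa2 (1.26 ± 0.45) and the sliding clamp Pcna (1.29 ± 0.47). Fen1, Rpa2 and Pcna also serve replication. Among 14 further checkpoint genes tested, 0 passed, 12 lay above 0 and the median was 0.53. The fork protection genes Timeless and Tipin differed by 1.42 and 0.97, the Atr activator Topbp1 by 0.97 and the phosphatase Cdc25c by 1.16. The 9 further end joining genes tested had a median of -0.03 and the 6 translesion synthesis genes one of -0.11, with 0 passing in both. Of these, the fork ligase Rad18 differed by 1.13 and the polymerase Rev1 by -0.95.

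**Figure D3:**
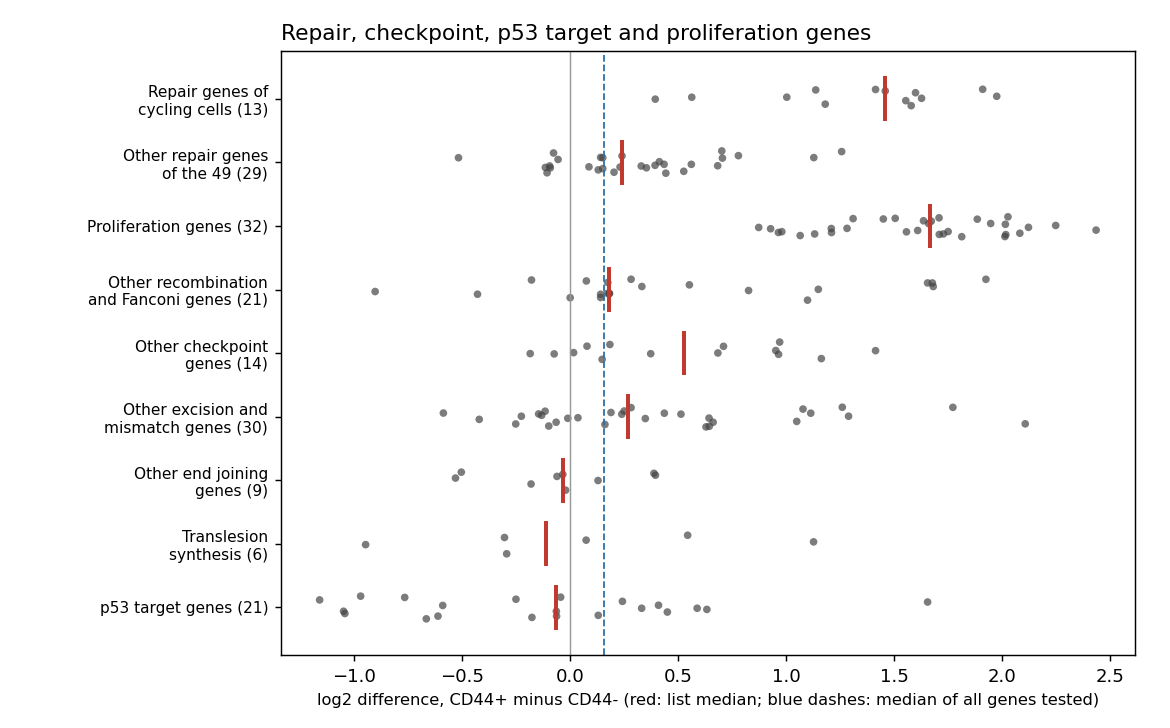
Each point is the log2 difference (CD44+ minus CD44-) of 1 gene tested, by gene list, with the list median in red and the median of all genes (0.16) as a dashed line. The 13 repair genes on the list of cycling cells (median 1.46) span 0.40 to 1.98. The 32 proliferation genes (median 1.67) span 0.87 to 2.44, while the p53 targets and the 9 further end joining genes have medians of -0.06 and -0.03.

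The proliferation genes were read on the same arrays. All 32 tested lay above 0 (60.6% of all genes), 31 without overlap (22.4% of all genes), and 0 passed. Their median difference was 1.67, with median levels of 1.70 and 1.74 in CD44+ and 0.26 and 0.06 in CD44- cells. The kinases Cdk1, Bub1 and Aurkb and the topoisomerase Top2a differed by 2.08, 2.03, 2.25 and 2.44. Whether the share of cycling cells sets the differences of the repair genes was not tested.

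Markers of other cells also differed between the groups. The summed signal of the enteroendocrine markers, in units of each array's 75th percentile, was 3.8 and 5.23 for CD44+ cells against 366 and 780 for CD44- cells, with 8 of 8 markers lower in CD44+ cells. For fibroblast markers it was 8.61 and 43.8 against 70.8 and 466 (10 of 10 lower), for endothelial markers 1.12 and 1.68 against 4.54 and 71.8 (5 of 6 lower), and for squamous markers 30.4 and 18.1 against 223 and 379 (6 of 8 lower). Smooth muscle markers summed to 8.03 and 8.06 against 11.6 and 44.9 (4 of 4 lower), and leukocyte markers to 14.3 and 3.66 against 19.8 and 23.9 (4 of 10 lower). The leukocyte sum follows Lyz2 (log2 difference -2.30), the brightest of these markers on every array. Of the 10 leukocyte markers 6 lay above 0 (60.6% of all genes did), with a median of 0.44. The summed signal of the mast cell markers was higher, at 10.4 and 14.8 against 3.32 and 3.1. All 6 tested lay above 0 (60.6% of all genes did). The proteases Mcpt1, Mcpt2, Mcpt4 and Cma1 did so without overlap, but the receptors Kit and Fcer1a differed by 0.06 and 0.13 with overlapping groups. Epithelial markers summed to 2170 and 1550 against 1970 and 847, with 6 of 7 higher, so epithelial RNA was present on all 4 arrays. By limma, 6 of the 8 enteroendocrine markers, Chgb among them, and the squamous marker Krtdap passed as lower in CD44+ cells, and the leukocyte marker Cd53 and the mast cell marker Mcpt1 as higher. Of the markers listed, Pecam1, Tie1, Cpa3, Krt4 and Des were not well above background on both arrays of either group. The part of these other cells in the repair gene differences was not tested. Without the second CD44- array, which had the most fibroblast and endothelial signal, the median of the 13 repair genes on the list of cycling cells was 1.26. The first CD44- array also had more of both signals than either CD44+ array, so this fit cannot decide the part of these cells.

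The promoters of the repair genes were searched because genes of cycling cells are known targets of E2F factors, which release transcription at the start of S phase. Windows from 250 bases before to 50 after the start, from RefSeq (GRCm38.p6), matched 40 of the 49 genes, 34 of them tested. The E2F letters searched were TTTCCCGC, TTTGGCGC, TTTCGCGC and TTTGCCGC on both strands. They occurred in 9 of the 40 genes (22.5%), against 4.12% of the 10718 genes tested that have a window and 2.6% of all 27025 genes. Among the repair genes tested they occurred in 2 of 10 that were at least 2-fold higher in CD44+ cells (20%) and in 5 of 24 others (20.8%). By the list of cycling cells, and counting genes not tested, they occurred in 4 of 12 on the list (33.3%) and 5 of 28 off it (17.9%). The sites of all 7 tested genes that hold these letters are shown because they belong both to genes with a difference of at least 2-fold (Clspn and Fancg) and to genes near 0 (Chek2 at 0.14). Each run has 30 bases on the strand of the gene, and the capitals mark the match, read from the other strand where it appears as GCGGGAAA or GCGCGAAA.
Clspn, chr4:126556990-126557019, plus strand: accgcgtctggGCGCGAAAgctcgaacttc
Fancg, chr4:43010335-43010364, minus strand: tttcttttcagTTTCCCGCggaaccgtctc
Xrcc6, chr15:82016312-82016341, plus strand: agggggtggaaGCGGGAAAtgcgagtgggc
Brca2, chr5:150522442-150522471, plus strand: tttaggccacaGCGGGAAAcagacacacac
Msh6, chr17:87975054-87975083, plus strand: ctcctcccgacTTTCCCGCcagcggcggcc
Msh3, chr13:92355187-92355216, minus strand: ttgccgtcaagTTTGGCGCgaaatcgcagc
Chek2, chr5:110839820-110839849, plus strand: cgggattagccGCGGGAAAccaagacgtcg
The first base of the match lies 22 bases after the start in Clspn and 16 after it in Msh6, and before it at -52 in Fancg, -46 in Xrcc6, -168 in Brca2, -202 in Msh3 and -152 in Chek2. In Msh3 a second match on the other strand overlaps the first.

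The letters CCAAT, the core bound by NF-Y, occurred on either strand in 20 of the 34 genes tested (58.8%), against 42.6% of tested genes with a window. The cell cycle homology element, as TTTGAA or TTCGAA, occurred in 0 of the 34, against 17.3%. Windows were found for 4 of the 6 genes with the 3 largest and 3 smallest differences, and the 250 bases before the start are shown for these, with capitals for any of the 3 motifs.
Clspn, chr4:126556730-126556979, plus strand: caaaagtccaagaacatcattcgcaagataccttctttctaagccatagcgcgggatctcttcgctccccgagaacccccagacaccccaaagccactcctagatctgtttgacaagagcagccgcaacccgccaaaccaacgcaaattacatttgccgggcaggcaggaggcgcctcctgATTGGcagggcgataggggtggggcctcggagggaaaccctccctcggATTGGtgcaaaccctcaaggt
Fanci, chr7:79392088-79392337, plus strand: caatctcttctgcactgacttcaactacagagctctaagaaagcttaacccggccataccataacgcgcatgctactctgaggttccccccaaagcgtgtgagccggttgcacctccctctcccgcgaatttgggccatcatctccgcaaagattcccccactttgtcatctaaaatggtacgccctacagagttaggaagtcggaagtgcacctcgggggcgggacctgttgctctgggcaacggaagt
Rad52, chr6:119902448-119902697, plus strand: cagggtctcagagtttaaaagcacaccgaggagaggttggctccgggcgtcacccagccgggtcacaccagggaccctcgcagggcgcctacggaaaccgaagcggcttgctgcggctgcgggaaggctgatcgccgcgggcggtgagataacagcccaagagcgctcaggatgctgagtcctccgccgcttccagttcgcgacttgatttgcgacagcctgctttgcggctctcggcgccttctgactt
Xrcc1, chr7:24546449-24546698, plus strand: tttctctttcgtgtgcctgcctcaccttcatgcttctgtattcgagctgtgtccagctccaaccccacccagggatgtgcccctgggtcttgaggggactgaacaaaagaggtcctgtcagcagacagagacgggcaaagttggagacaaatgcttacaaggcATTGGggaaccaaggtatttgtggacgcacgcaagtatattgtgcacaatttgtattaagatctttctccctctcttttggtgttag
Clspn holds CCAAT on the other strand at -69 and -21 and Xrcc1 at -87, while Fanci and Rad52 hold none of the letters searched in these bases. A match or its absence is a description of these letters and does not show binding.

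The 12 genes with an unadjusted p under 0.05 kept their direction under every alternative tried. By limma, Exo1 passed with median scaling, where 0.575% of all genes passed as higher. It also passed with the values of the authors' deposited table (0.575%), which is nearly the same fit and no separate check. With normexp background correction (0.466%) Exo1 passed too. Its adjusted p ranged from 0.0263 to 0.502 over the alternatives without a replicate term. Clspn entered the test only through the CD44+ group, where it was high, and its CD44- values lie at background, so its adjusted p (0.0209 to 0.993 over the same alternatives) is given as a description.

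**Figure D4:**
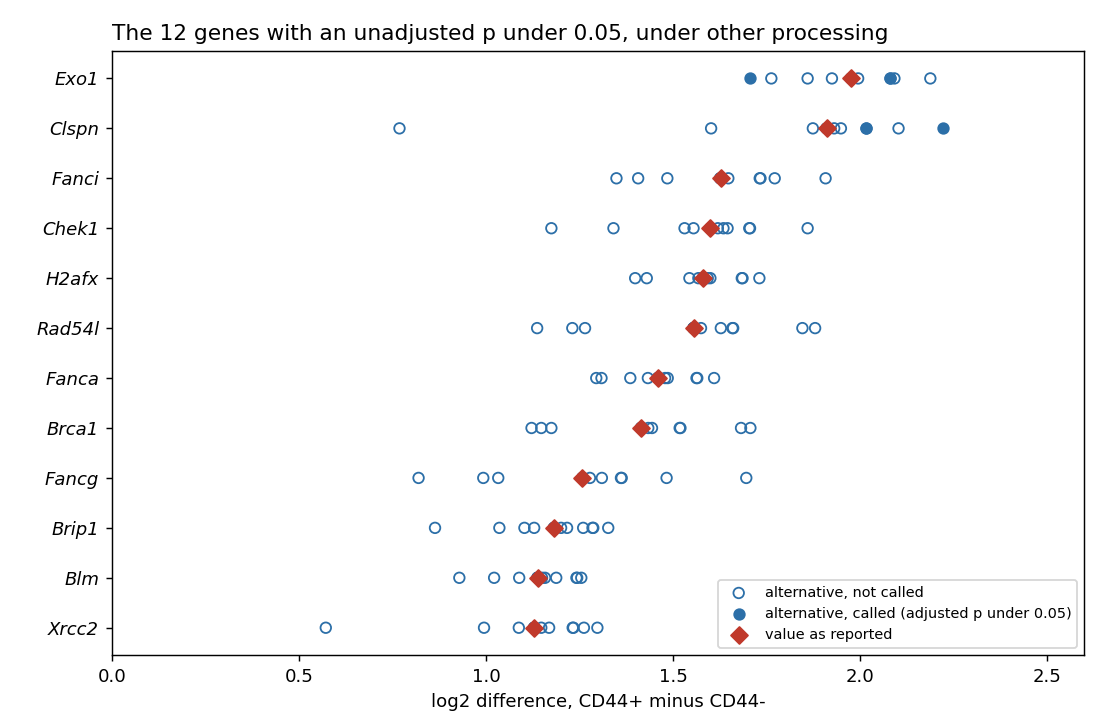
For the 12 repair genes with an unadjusted p under 0.05, the log2 difference as reported (red diamonds) is plotted with its value under each alternative, filled where the adjusted p was under 0.05. The alternatives of Exo1 lie between 1.71 and 2.19, and those of Clspn, which was at background in CD44- cells, between 0.77 and 2.22. The fit by replicate number, which gives the same differences, is not drawn.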

How the data were processed

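RNA of 4 samples (2 CD44+, 2 CD44-) was read on 4 one-colour arrays of 1 slide and 1 scan. Total RNA (25 ng) was amplified and 0.2 ug of the product carried Cy3, per the labels' protocols. Amplification from little RNA can distort levels. The authors' scanner tables name version 10.1.1.1 of Agilent Feature Extraction, per the file headers. Version 9.5 stands in the submitters' processing notes. The deposited processed signal is a background-subtracted intensity on a linear scale, beside spot flags for outliers, saturation and background. The authors made the ratio values of their deposited table by dividing each probe's signal by its median over the arrays, as a match to the scanner values shows (10728 probes, SD at most 0.00161 in log2). Each array also carries 1 factor whose choice is not stated, with column medians of 0.853, 0.989, 0.928 and 0.739.

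Control and outlier spots were left out and spots of a probe averaged, giving 41174 probes. Log2 values were taken relative to each array's 75th percentile over probes. Accessions matched to RefSeq (GRCm38.p6) named 24375 probes. A probe was tested if well above background on both arrays of a group, and the brightest stood for its gene. Groups were compared with limma 3.58.1 in R 4.3.3 (lmFit, eBayes, no covariates, 2 residual and 6.02 prior degrees of freedom), Benjamini-Hochberg adjusted over all genes tested. With 2 arrays per group an exact permutation p cannot go below 0.333, and the number of arrays limits precision. The script was tested on simulated data. The genes and lists were chosen with earlier results of these data known. Values on every array are given for the 20 repair genes with the smallest p and for 8 checkpoint, p53 and Brca genes whatever their value, with up to 4 genes for each further list, of which 1 or more are not reported here. All 4 arrays share the slide and scan, so neither was tested as a block.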

Additional observations from a re-analysis of the deposited data

How the results depend on the processing

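Of 22 repair genes given with their values, 20 kept their direction under every alternative run. With 1 array left out the log2 difference ranged from -0.222 to 0.505 for Chek2 and from -0.076 to 0.252 for Mdm2, and the causes were not tested. Over all genes the count of 84 became 749 with median scaling, 748 in the authors' deposited table, 540 with normexp, 133 with a variance trend, 24 with no filter on dim probes and 6 with quantile normalization, and between 2 and 1589 with 1 array left out. The repair gene count of 0 became 2 with median scaling and in the authors' table (Exo1 and Clspn) and 1 with normexp (Exo1), and was 0 to 1 with 1 array left out (Clspn, without the first CD44- array, where the remaining CD44- array lies at background, the CD44+ pair alone gives the spread and 191 genes passed as higher). Their median of 0.44 became 0.545 with median scaling and 0.543 in the authors' table, which shift all genes, and 0.357 to 0.6 with 1 array left out. Scaling to the 75th percentile over spots, chosen after seeing the data, gave 112 genes and 0 repair genes. The replicate numbers shared between groups name 2 pairs only, whose deviations correlated at 0.347 across genes. With the replicate block 1829 genes and 6 repair genes passed (Chek1, Clspn, Exo1, Fanci, H2afx and Rad54l). These repair genes were all higher in CD44+ cells, where 336 of all genes (1.6%) passed as higher. In this fit and in the normexp fit the prior degrees of freedom were infinite. All genes then shared a common variance, so these calls do not use the spread of the single gene. The slide as a block was not run, since all arrays share it. Signal near background limits Clspn, which was not well above it in CD44- cells and differed by 0.77 with normexp. It also limits Atm and Fancd2, which could not be tested, while Atr had no named probe.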
